A study of Mus musculus and Homo sapiens with 24 samples.

Results

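The 9 genes described here encode carriers that move drugs, bile salts, hormone conjugates and other organic ions across the membranes of liver cells. They were read in HepG2, an established human hepatoma line that makes many hepatocyte proteins. The genes were taken by symbol from the HepG2 count table, where they are 9 of 28278 rows. SLC22A3, SLC22A7, SLC22A9, SLCO1B1 and SLCO2B1 encode uptake carriers, and ABCB1, ABCC2, ABCC3 and ABCG2 encode export pumps. HepG2 cells supplied 12 of the 24 RNA-Seq libraries of the series, with 3 in each of 4 groups. The control group received neither agent. The CoCl2 group received 50 µM cobalt chloride, an inhibitor of the oxygen-dependent breakdown of HIF1α. The estrogen group received 25 nM β-estradiol, and the CoCl2+estrogen group received both agents at those doses. Every treatment lasted 4 h. All 12 libraries came from 1 cell line, the replicates carry only the letters A, B and C, and no label says how the cultures were separated. The p-values therefore measure the spread between these samples, which may be technical. Below, "culture" names the sample of 1 library, whether or not it was grown apart from the others.

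Drug and bile salt carriers of the SLC22 and SLCO families take organic anions and cations up from the blood, mostly at the sinusoidal face of the hepatocyte. Pumps of the ABC family use ATP to push drugs and conjugates out, either into bile at the canalicular face or back into blood. Several of these genes are known targets of nuclear receptors and other liver transcription factors, and carrier levels in hepatoma lines are known to differ from those in liver.

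The libraries held 13592637 to 21701480 counts, with group medians of 18124949 for control, 17963253 for CoCl2, 15012992 for estrogen and 15657824 for CoCl2+estrogen. The first principal component of all genes held 81.0% of the variance and separated the 6 estrogen-treated libraries from the other 6, while CoCl2 replicate B stood apart on the second component and had the lowest total. All 8 hepatocyte markers checked were read in all 12 libraries, and all 8 fell with estrogen, by a median of -1.25 on the log2 scale. Their summed level was 27033 to 29573 CPM (each library's counts scaled to 1e6 effective counts) in control, 29364 to 31232 in CoCl2, 14873 to 16283 in estrogen and 16305 to 17102 in CoCl2+estrogen libraries. Of 12 markers of leukocytes, endothelium, fibroblasts and bile duct cells, PTPRC, CD3E and COL1A2 were at 0 in every library, and 3 of the 7 tested fell with estrogen and 1 rose. COL1A1 fell from a mean of 20.8 to 1.15 CPM, CD68 from 29.1 to 15.1 CPM and KRT7 from 1.23 to 0.319 CPM, while PECAM1 rose from 0.733 to 1.78 CPM. The summed level of the 12 was 479 to 547 CPM in control and 464 to 481 CPM in estrogen libraries, most of it from KRT19 (means of 451 and 444 CPM). The part of these markers in the results below was not tested. In bulk RNA of 1 cell line, fewer cells with a transcript and less of it per cell cannot be told apart. CoCl2 raised the hypoxia-response genes PFKFB3 by 2.97, BHLHE40 by 1.82 and NDRG1 by 1.53 on the log2 scale. ADM and VEGFA stood at 319% and 196% of the control mean with CoCl2. With estrogen and no CoCl2, VEGFA stood at 653% of control, ADM at 369%, BHLHE40 at 230% and NDRG1 at 215%, and PFKFB3 at 79.6%. Among genes that estrogen receptor α induces in breast cells, GREB1 fell with estrogen by 0.61 on the log2 scale, TFF1 had at most 8 counts in any library and PGR at most 4. No source used here says whether estrogen-treated and other cultures were handled together, so below "with estrogen" names the group, and the agent and any difference in handling cannot be told apart.

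With estrogen, 6 of the 8 carriers tested passed the test described below, near the 68.9% of all genes that passed. With CoCl2, 0 of the 8 passed, beside 1.44% of all genes. With estrogen ABCB1 rose 6.05-fold, SLC22A9 rose 3.01-fold and SLC22A3 rose 1.31-fold, while SLC22A7 fell to 2.64% of the control mean, SLCO2B1 fell to 24.5% and ABCG2 fell to 61.3%. The same members moved the same way when estrogen was added to CoCl2. The group means of ABCC2 and ABCC3 lay between 91.6% and 111% of control. SLCO1B1 had no count in any library.

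A gene is called changed here where edgeR's quasi-likelihood test gave a Benjamini-Hochberg adjusted p of at most 0.05 over all genes tested in that comparison. Genes needed a count above 5 in at least 1 library of the comparison, and 8 of the 9 members passed. Between estrogen and control, 6 of these 8 were called, 3 higher and 3 lower. The difference between estrogen and control libraries covered the transcriptome: 68.9% of all 16281 genes tested were called, 34.7% higher and 34.2% lower, so the members' 6 of 8 is near the share of all genes. The members' median log2 fold change was 0.03, beside -0.0040 for all genes tested. Between CoCl2+estrogen and control, 8 of the 8 tested were called, 4 higher and 4 lower, beside 65.4% of all genes (32.3% higher and 33.2% lower). Estrogen added to CoCl2 gave calls for 7 of the 8, 3 higher and 4 lower, beside 60.9% of all genes (30.1% higher and 30.8% lower). CoCl2 alone gave 0 calls among the 8 by edgeR, 1 with an unadjusted p under 0.05, and 0 by DESeq2, beside 1.44% of all genes called.

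**Figure D1:**
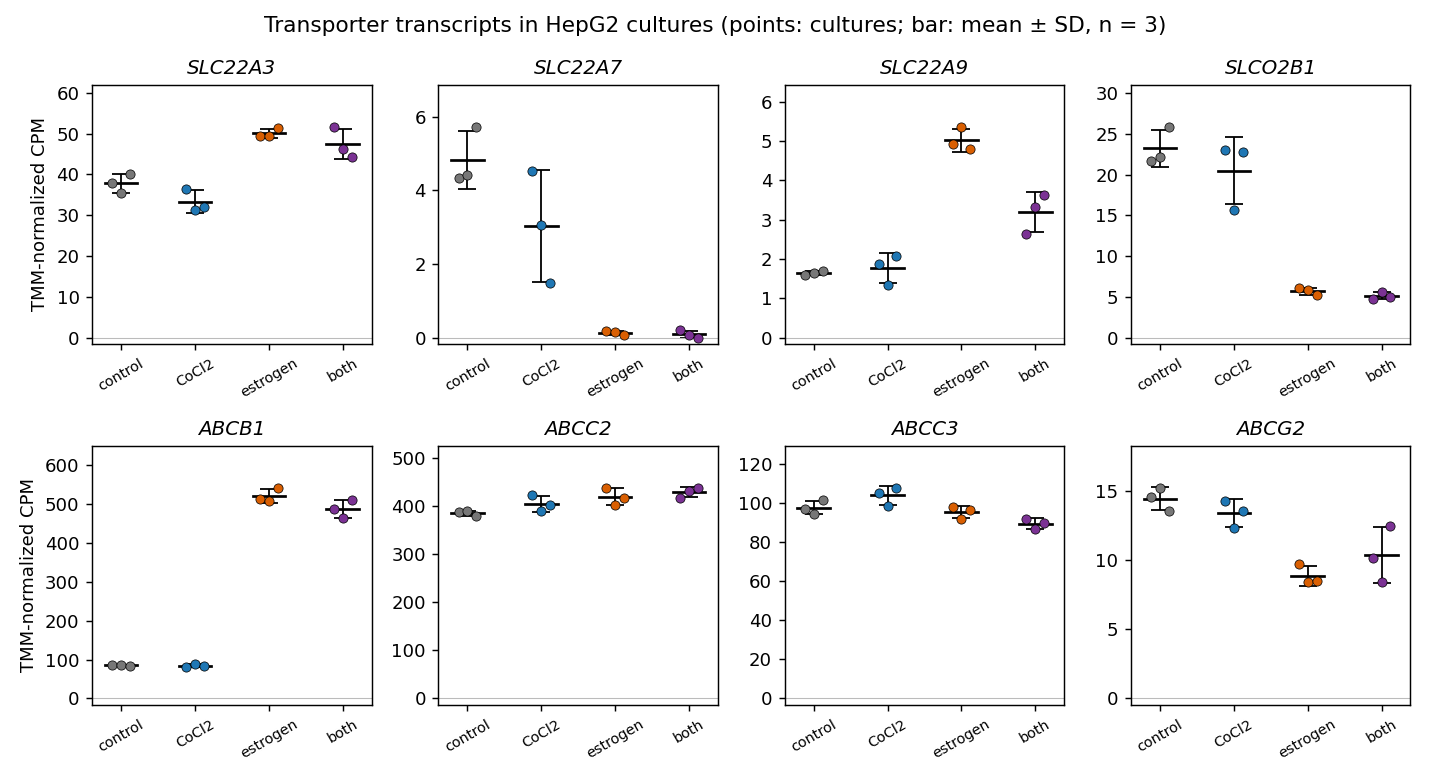
TMM-normalized level in CPM (vertical axis, starting at about 0) of the 8 members with counts, in control, CoCl2, estrogen and CoCl2+estrogen (both) cultures; points are single cultures, and the bar with whiskers is the mean ± SD (n = 3). ABCB1 lies at 464 to 542 CPM in the 6 estrogen-treated cultures and at 81.7 to 88.1 CPM in the other 6, SLCO2B1 and SLC22A7 show the opposite split, and ABCC2 and ABCC3 lie at like levels in all 4 groups.

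Among the uptake genes, SLC22A7 changed most. It encodes OAT2, a carrier of organic anions and cyclic nucleotides in the sinusoidal membrane. The table held 84, 97 and 98 counts of it in control replicates A, B and C, and 84, 41 and 33 in the CoCl2 replicates. It held 3, 2 and 1 counts in the estrogen replicates, and 3, 1 and 0 in the CoCl2+estrogen replicates. No estrogen-treated culture came near any culture without estrogen.

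Summed over replicates and scaled, the SLC22A7 count of control was 36.6 times that of estrogen (95% counting interval 16.6 to 101). CoCl2 exceeded CoCl2+estrogen by a ratio of 33.7 (12.9 to 125). These intervals, from 6 and 4 counts in the lower groups, cover counting error only. The edgeR adjusted p was 4.25e-09 for estrogen against control and 2.64e-05 for CoCl2+estrogen against CoCl2. Leaving out CoCl2+estrogen replicate A, which held 3 of that group's 4 counts, moved the fitted log2 difference from CoCl2 from -5.01 to -6.26, and that from control from -5.71 to -6.97. The CoCl2 replicates themselves were uneven, at 4.53, 3.05 and 1.48 CPM beside 4.34, 4.42 and 5.72 CPM in control. Their groups overlapped, and the difference of -0.69 (95% interval -1.39 to 0.02) had an edgeR adjusted p of 0.46. It was -0.32 without CoCl2 replicate C and -1.14 without CoCl2 replicate A. Estrogen and CoCl2+estrogen could not be compared for SLC22A7, since no library of either held more than 3 counts.

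SLCO2B1 encodes OATP2B1, a widely expressed carrier of organic anions that takes up steroid sulfates and statins. Its level was 21.7, 22.1 and 25.9 CPM in control and 23.1, 15.7 and 22.8 CPM in CoCl2 cultures. With estrogen it was 6.05, 5.79 and 5.21 CPM, and with both agents 4.77, 5.62 and 5.0 CPM. The 6 estrogen-treated cultures all lay below the other 6, and the low CoCl2 value belongs to replicate B, the library that stood apart.

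Relative to control, SLCO2B1 fell 4.11-fold with estrogen, a log2 change of -2.04 (SE 0.12, edgeR adjusted p = 6.44e-10). The change from CoCl2 to CoCl2+estrogen was -2.02 (SE 0.17, edgeR adjusted p = 2.53e-07), and it was -2.18 without CoCl2 replicate B. CoCl2 alone gave -0.16 (95% interval -0.46 to 0.13), and -0.02 without that library. Ordered by level, the groups ran control, CoCl2, estrogen and CoCl2+estrogen. Control and CoCl2 were not separated by the test, nor were estrogen and CoCl2+estrogen, whose log2 difference was -0.12 (95% interval -0.44 to 0.21).

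SLC22A9 encodes OAT7, a liver carrier of sulfated steroids and other organic anions. It was read in every library, at 1.60, 1.64 and 1.69 CPM in control and 1.89, 1.34 and 2.07 CPM in CoCl2 cultures. Estrogen cultures held 4.92, 5.36 and 4.80 CPM, and CoCl2+estrogen cultures held 2.65, 3.32 and 3.63 CPM. The estrogen cultures were highest, the CoCl2+estrogen cultures lay between, and neither overlapped any other group.

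Against control, SLC22A9 rose 3.01-fold with estrogen (log2 1.59, SE 0.20, edgeR adjusted p = 3e-06) and 1.91-fold with both agents (log2 0.93, SE 0.23, edgeR adjusted p = 0.00247). Against CoCl2 the rise with both agents was 1.76-fold (log2 0.82, SE 0.26, edgeR adjusted p = 0.0153), and without CoCl2+estrogen replicate C its adjusted p was 0.0637. CoCl2 alone differed from control by 0.13 (95% interval -0.45 to 0.71).

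CoCl2 added to estrogen gave a call for 1 of the 7 members tested, and this was SLC22A9, beside 17% of all genes. Its log2 change from estrogen to CoCl2+estrogen was -0.62 (SE 0.18, edgeR adjusted p = 0.0271), a fall of 1.54-fold. The adjusted p was 0.0658 by DESeq2. It was 0.0722 without estrogen replicate A, 0.0849 without estrogen replicate B and 0.122 without CoCl2+estrogen replicate A, all by edgeR. The interaction, which asks whether the effects of both agents add on the log2 scale, was -0.75 for SLC22A9 (SE 0.30), with an unadjusted p of 0.0211 and an edgeR adjusted p of 0.169.

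SLC22A3 encodes OCT3, a carrier of organic cations and monoamines. Control cultures held 37.8, 35.4 and 40.2 CPM, and CoCl2 cultures 36.5, 31.4 and 31.9 CPM. Estrogen cultures held 49.4, 49.5 and 51.3 CPM, and CoCl2+estrogen cultures 51.6, 46.3 and 44.3 CPM. All estrogen-treated cultures were above all cultures without estrogen, while the ranges of control and CoCl2 overlapped.

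The rise of SLC22A3 was small: 1.31-fold with estrogen against control (log2 0.39, SE 0.07, edgeR adjusted p = 0.000139) and 1.41-fold with both agents against CoCl2 (log2 0.50, SE 0.09, edgeR adjusted p = 0.000283). Of all genes tested, 67.6% had a larger absolute log2 change with estrogen. CoCl2 gave -0.18 (95% interval -0.35 to -0.00), with an unadjusted p of 0.0461 and an edgeR adjusted p of 0.432. Estrogen and CoCl2+estrogen differed by -0.05 (95% interval -0.20 to 0.11), so the test separated the estrogen-treated groups from the others but not the groups within each pair.

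SLCO1B1 encodes OATP1B1, the sinusoidal carrier of bilirubin and statins in human hepatocytes. It had 0 counts in all 12 libraries, which allows up to 3 counts in each, or 0.135 to 0.224 CPM depending on the library, by counting error alone. Its near relatives had few counts: SLCO1B7 had at most 1 in any library and the readthrough gene SLCO1B3-SLCO1B7 at most 6. SLCO1B3 had at most 11, and its estrogen mean of 0.504 CPM lay above this limit. It was called higher with CoCl2+estrogen than with CoCl2 (edgeR adjusted p = 0.0353), whose mean of 0.0659 CPM lay below the limit. It was not called against control with estrogen (edgeR adjusted p = 0.175) or with CoCl2+estrogen (0.382). Whether reads shared by these related genes were split among them is not given in the sources used here.

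Of the export genes, ABCB1 changed most. It encodes P-glycoprotein, the canalicular pump of lipophilic drugs known from multidrug-resistant tumor cells. Its level was 85.8, 86.4 and 83.8 CPM in control and 81.7, 88.1 and 83.1 CPM in CoCl2 cultures. Estrogen cultures held 514, 509 and 542 CPM, and CoCl2+estrogen cultures held 487, 464 and 512 CPM. The estrogen-treated cultures lay far above the others, with no overlap.

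ABCB1 rose 6.05-fold with estrogen (95% interval 5.53 to 6.62), a log2 change of 2.60 (SE 0.06, edgeR adjusted p = 5.52e-14) that ranked 26 by p among the 16281 genes tested. By size, 6.59% of all genes changed more. With CoCl2 present, the rise was 5.73-fold (95% interval 5.18 to 6.33, edgeR adjusted p = 3.65e-11), and the interaction was -0.05 (95% interval -0.24 to 0.13). CoCl2 alone left ABCB1 at 0.99 of control (95% interval 0.885 to 1.11), and CoCl2+estrogen stood at 0.953 of estrogen (95% interval 0.881 to 1.03). In order of level, estrogen and CoCl2+estrogen were not separated by the test, and neither were control and CoCl2. The deposited ABCB1 counts were more than 0.01 from a whole number in 8 of 12 libraries, as were those of ABCC3 in 2. The ABCB1 value of estrogen replicate A, for example, was 9093.41. Part of the ABCB1 reads may therefore be shared with another gene. RUNDC3B, which overlaps ABCB1, held 3.22 CPM in control and 2.16 CPM in estrogen cultures. Whether reads were shared between them was not tested.

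ABCG2 encodes BCRP, a pump of sulfated conjugates, urate and drugs. Control cultures held 14.6, 15.3 and 13.6 CPM, and CoCl2 cultures 14.3, 12.4 and 13.6 CPM. Estrogen cultures held 9.72, 8.43 and 8.48 CPM, and CoCl2+estrogen cultures 10.2, 8.46 and 12.5 CPM. Estrogen cultures were all below control, while CoCl2+estrogen replicate C reached the range of the CoCl2 cultures.

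The fall of ABCG2 with estrogen was 1.65-fold (log2 -0.72, SE 0.12, edgeR adjusted p = 5.25e-05). With both agents against control it was -0.51 (SE 0.13, edgeR adjusted p = 0.00389). Against CoCl2, both agents gave -0.39 (SE 0.14, edgeR adjusted p = 0.0308), and this call was lost with DESeq2 (adjusted p = 0.060). By edgeR it was lost without CoCl2 replicate A (adjusted p = 0.0773), CoCl2 replicate C (0.0947), CoCl2+estrogen replicate A (0.0838) or CoCl2+estrogen replicate B (0.152). The interaction was 0.35 (95% interval -0.04 to 0.74, edgeR adjusted p = 0.335). Control and CoCl2 differed by -0.10 (95% interval -0.34 to 0.13), and CoCl2+estrogen and estrogen by 0.25 (95% interval -0.06 to 0.55).

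ABCC2 encodes MRP2, the canalicular pump of bilirubin conjugates. Control cultures held 387, 389 and 379 CPM, CoCl2 cultures 422, 390 and 402 CPM, estrogen cultures 438, 403 and 417 CPM, and CoCl2+estrogen cultures 417, 431 and 436 CPM. The control cultures were the lowest, by a narrow margin. With estrogen the log2 difference from control was 0.11 (95% interval -0.01 to 0.23, edgeR adjusted p = 0.0982), and with library totals in place of TMM it was -0.02. With both agents it was 0.13 (SE 0.05, edgeR adjusted p = 0.0477), a call kept in 6 of 14 alternative settings. It was lost without control replicate A (edgeR adjusted p = 0.0937), control replicate C (0.0936), CoCl2+estrogen replicate B (0.106) or CoCl2+estrogen replicate C (0.136). CoCl2 alone gave 0.07 (95% interval -0.06 to 0.21).

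ABCC3 encodes MRP3, which returns conjugates from the hepatocyte to blood. Control cultures held 97.1, 94.4 and 101 CPM, CoCl2 cultures 105, 98.6 and 108 CPM, estrogen cultures 97.7, 91.9 and 96.5 CPM, and CoCl2+estrogen cultures 91.8, 86.5 and 89.8 CPM. CoCl2 cultures were highest and CoCl2+estrogen cultures lowest, with no overlap between these groups. With both agents the level was -0.23 from CoCl2 (SE 0.08, edgeR adjusted p = 0.0191) and -0.15 from control (SE 0.06, edgeR adjusted p = 0.0379).

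These ABCC3 calls were fragile. That against CoCl2 held in 10 of 14 alternative settings and was lost without CoCl2 replicate C (edgeR adjusted p = 0.0828) or CoCl2+estrogen replicate A (0.0505), B (0.0892) or C (0.0597). That against control held in 3 of 14 and was lost by DESeq2 (adjusted p = 0.0958). By edgeR it was lost without control replicate A (adjusted p = 0.104), B (0.0646) or C (0.0805) and without CoCl2+estrogen replicate B (0.121) or C (0.078). Neighbouring groups in the order CoCl2, control, estrogen and CoCl2+estrogen were not separated by the test. Estrogen and control differed by -0.05 (95% interval -0.18 to 0.09), and with library totals in place of TMM the difference was -0.18 with an edgeR adjusted p of 0.0211.

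**Figure D2:**
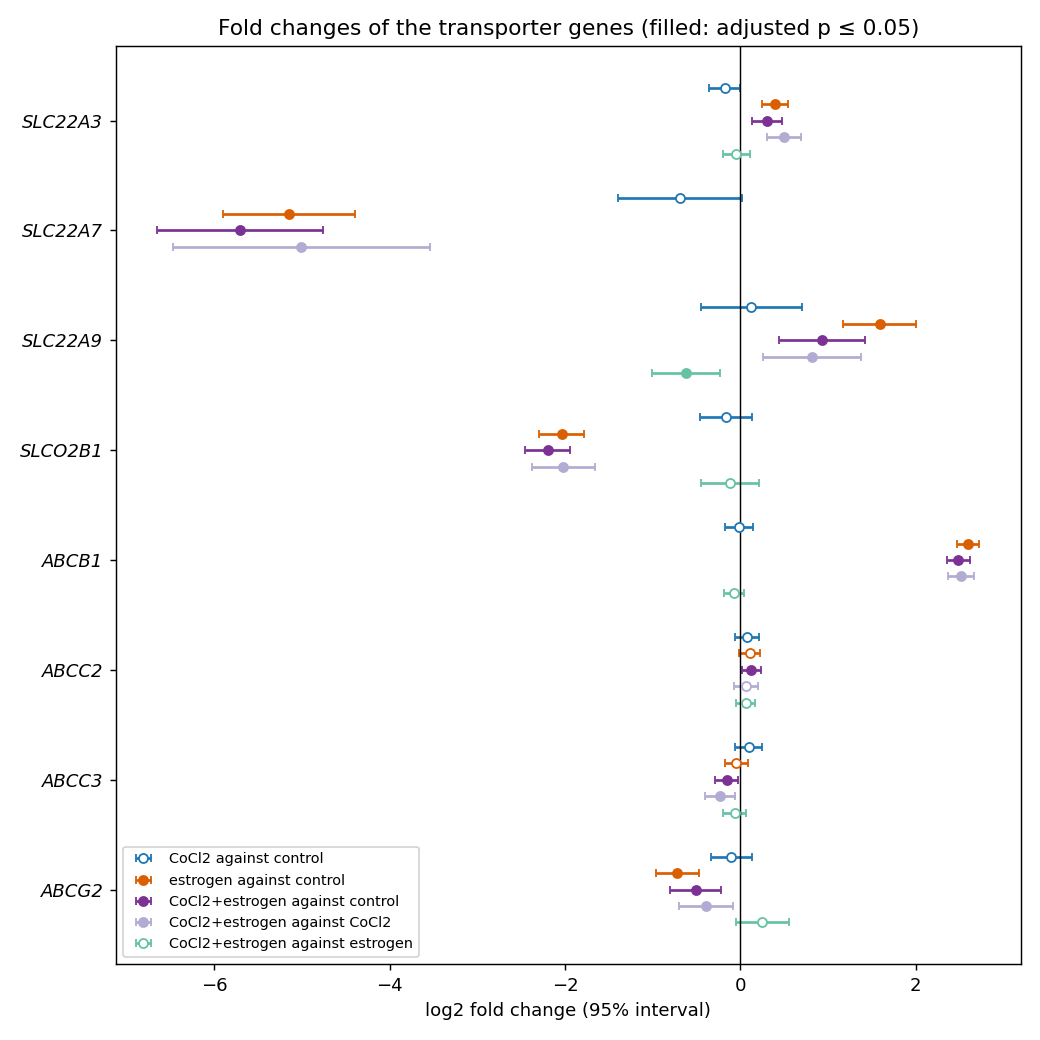
Log2 fold change of each member in 5 comparisons (horizontal axis) with its 95% interval; filled points have an edgeR adjusted p of at most 0.05, and each fit used only the 6 libraries compared. The CoCl2 against control points are all open, SLC22A7 and SLCO2B1 lie left of 0 and ABCB1 lies near 2.5 in the 3 comparisons of an estrogen-treated with an untreated or CoCl2 group, and SLC22A7 has no point for CoCl2+estrogen against estrogen.

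CoCl2 alone left every tested member between -0.69 and 0.13 on the log2 scale. The 95% intervals of ABCB1, ABCC2 and ABCC3 reached at most 0.25 from 0 at 2 decimals. SLC22A7 and SLC22A9 had the fewest counts and the widest intervals, which reached down to -1.39 for SLC22A7 and up to 0.71 for SLC22A9. For the interaction of CoCl2 and estrogen, 0 of 8 members were called by edgeR, 1 had an unadjusted p under 0.05 (SLC22A9), and 0 were called by DESeq2, beside 5.8% of all 16681 genes. Leaving out CoCl2 replicate B also left 0 members called for CoCl2 against control.

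**Figure D3:**
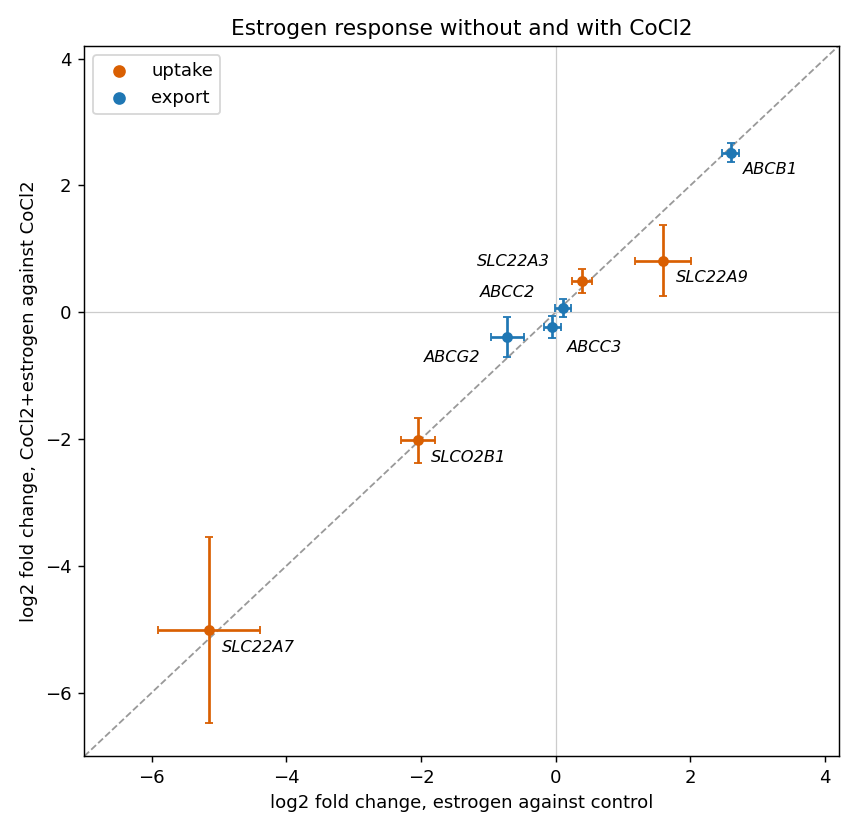
Log2 fold change of each member for estrogen against control (horizontal axis) and for CoCl2+estrogen against CoCl2 (vertical axis), 2 comparisons that share no library, with 95% intervals; uptake genes are orange, export genes blue, and the dashed line marks equal changes. ABCB1 (2.60 and 2.52), SLCO2B1 (-2.04 and -2.02) and SLC22A7 (-5.15 and -5.01) lie near the line, and SLC22A9 (1.59 and 0.82) lies below it without passing the interaction test.

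Other carriers were read from a list of 37 uptake genes of the SLC10, SLC22 and SLCO families and a list of 19 export genes. With estrogen, 16 of the 21 uptake genes tested were called, 11 higher and 5 lower, with a median log2 fold change of 0.86, beside 68.9% of all genes (34.7% higher and 34.2% lower). SLC22A31 fell by 2.28 on the log2 scale (edgeR adjusted p = 3.32e-09), from 43.4 ± 8.76 to 9.02 ± 1.83 CPM (SD, n = 3). SLC22A23 rose by 0.86 (edgeR adjusted p = 1.26e-08), from 91.4 ± 4.33 to 168 ± 6.81 CPM. SLC22A15, from the same family as the member SLC22A9, rose by 3.35 (edgeR adjusted p = 2.04e-08) and fell from estrogen to CoCl2+estrogen by 0.71 (edgeR adjusted p = 0.00774), the same order of groups as SLC22A9. SLCO4A1, which takes up thyroid hormone, rose by 0.87, and SLCO4C1 fell by 1.29. With CoCl2+estrogen against control, 14 of 20 were called (8 higher and 6 lower), beside 65.4% of all genes. With CoCl2+estrogen against CoCl2, 15 of 20 were called (9 higher and 6 lower), beside 60.9% of all genes. CoCl2 alone gave 0 of 17 by edgeR, with 0 at an unadjusted p under 0.05, beside 1.44% of all genes called.

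Of the 15 other export genes tested with estrogen, 11 were called, 2 higher and 9 lower, with a median log2 fold change of -0.76, beside the same 68.9% of all genes. ABCC6 fell by 2.18 on the log2 scale (edgeR adjusted p = 3.12e-12), from 99.4 ± 6.82 to 22.2 ± 1.42 CPM (SD, n = 3). SLC47A1, the proton-coupled exporter of organic cations, fell by 0.99, and ABCC5, a pump of cyclic nucleotides, fell by 0.97. ABCG8, which forms the sterol pump of the canalicular membrane with ABCG5, fell by 1.25. The rises were those of SLC51B, the β subunit of the basolateral bile salt exporter, by 2.50 (edgeR adjusted p = 4.43e-07), and of ABCB4, the phospholipid pump next in family to ABCB1, by 0.62 (edgeR adjusted p = 5.2e-05). With CoCl2+estrogen, 11 of 15 were called against control and 11 of 15 against CoCl2, in both cases 2 higher and 9 lower. The shares of all genes called were 65.4% and 60.9%. CoCl2 alone gave 0 of 15 by edgeR, with 4 at an unadjusted p under 0.05, beside 1.44% of all genes called. ABCB4 was named after its values were seen.

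**Figure D4:**
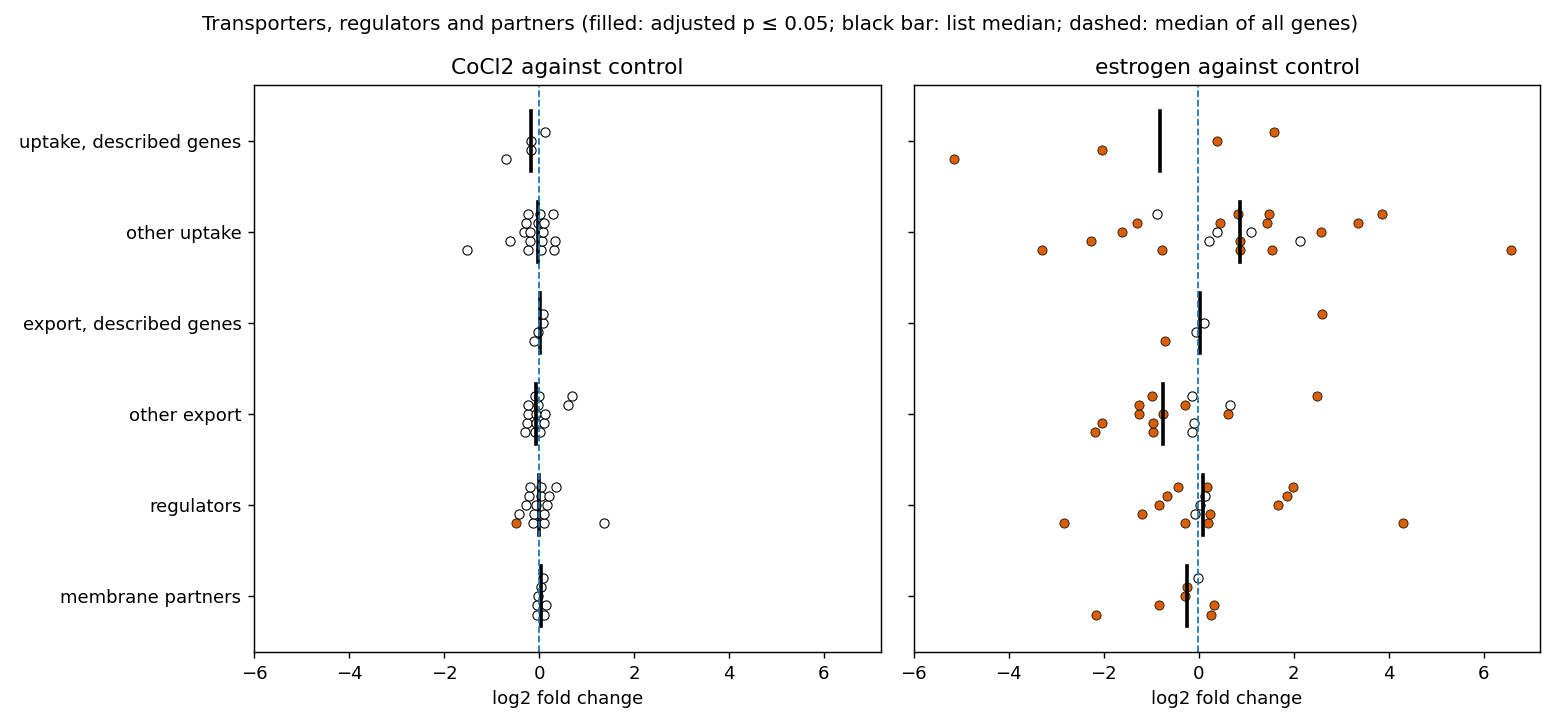
Log2 fold changes (horizontal axis) of the members, of other uptake and export genes, of transcriptional regulators and of membrane partners, for CoCl2 against control (left) and estrogen against control (right); each point is 1 gene, filled where the edgeR adjusted p is at most 0.05, the black bar is the list median and the dashed line the median of all genes tested. On the left 1 point of all lists is filled, and on the right other uptake genes have a median of 0.86 and other export genes a median of -0.76.

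Transcriptional regulators of carriers were read from a list of 17 nuclear receptors and liver factors. Of the 16 tested, 13 were called with estrogen, 7 higher and 6 lower, beside 68.9% of all genes. AHR, the dioxin receptor, rose by 1.99 on the log2 scale (edgeR adjusted p = 5.58e-13), and the liver factor FOXA2 rose by 1.87 (edgeR adjusted p = 5.09e-12). CEBPA, a hepatocyte differentiation factor, fell by 2.83 (edgeR adjusted p = 1.25e-11), from 116 ± 16.0 to 16.6 ± 2.76 CPM (SD, n = 3). NR5A2 rose by 1.67, and ESR1, which encodes estrogen receptor α, rose by 4.30 from a mean of only 0.192 CPM to 3.90 CPM. The pregnane X receptor NR1I2, a known regulator of ABCB1, fell by 0.84 (edgeR adjusted p = 1.82e-05) and was named after its values were seen. Its part in the change of ABCB1 was not tested. The bile acid receptor NR1H4 fell with CoCl2 by 0.48 (edgeR adjusted p = 0.0305), the 1 regulator of 16 called there, and no regulator was called without control replicate A, B or C or without CoCl2 replicate C. With CoCl2+estrogen against control 13 of 16 were called (5 higher and 8 lower), beside 65.4% of all genes. Against CoCl2, 11 of 16 were called (5 higher and 6 lower), beside 60.9% of all genes.

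Genes that hold carriers in the membrane or move them there formed a list of 8, of which 7 were in the table under the listed symbol. Estrogen gave calls for 6 of the 7, 2 higher and 4 lower, beside 68.9% of all genes. CoCl2 alone gave 0 by edgeR, with 0 at an unadjusted p under 0.05, beside 1.44% of all genes called. PDZK1, a scaffold that binds the tails of several carriers, fell by 2.16 on the log2 scale (edgeR adjusted p = 7.68e-11), from 35.4 ± 2.27 to 8.02 ± 0.524 CPM (SD, n = 3). RAB11A, a regulator of recycling vesicles, fell by 0.83, and the membrane linkers EZR and SLC9A3R1 rose by 0.32 and fell by 0.29. With CoCl2+estrogen, 6 of 7 were called against control and 6 of 7 against CoCl2, in both cases 2 higher and 4 lower. All genes gave shares of 65.4% and 60.9%.

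With CoCl2 added to estrogen, 9 of 16 regulators were called, 1 higher and 8 lower, beside 17% of all genes. NFE2L2, the oxidative stress factor, fell by 0.52 (edgeR adjusted p = 4.45e-06), AHR fell by 0.38 (edgeR adjusted p = 0.000113) and FOXA2 fell by 0.41 (edgeR adjusted p = 0.000139). Among other uptake genes 2 of 22 were called in this comparison, SLC22A15 and SLC22A11, the latter named after its low values were seen, and the count was 0 without estrogen replicate A. Among other export genes 1 of 15 was called, ABCC1, which rose by 0.20 (edgeR adjusted p = 0.015), and among membrane partners MYO5B, which rose by 0.19 (edgeR adjusted p = 0.0403). Both of these counts were also 0 without estrogen replicate A, and that of membrane partners was 0 without estrogen replicate B or CoCl2+estrogen replicate B or C.

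The genes most like each member were found by Pearson's r of log2 CPM over the 12 libraries among 13261 genes whose mean reached 1 CPM. The libraries fall into estrogen-treated and other libraries, and r was not separated from that split. For ABCB1 the highest values were 0.999 with PLCB1 and 0.999 with BRPF3, and 1958 genes passed 0.95. SLCO2B1 was most like AP1B1 (0.998) and MOV10 (0.997), with 1553 genes past 0.95. SLC22A7 was most like HDDC3 (0.996) and the glyoxylate enzyme AGXT (0.990), with 963 past 0.95. SLC22A9 was nearest to SUSD6 (0.988), SLC22A3 to TEAD4 (0.975) and ABCG2 to TMEM170B (0.969). ABCC2 and ABCC3 had no gene past 0.95, and their nearest were TLR6 (0.939) and GID8 (0.947).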

How the data were processed

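The members and lists were chosen with earlier results of these data known. From rRNA-depleted total RNA the authors sequenced paired reads, filtered out rDNA, tRNA and mitochondrial rDNA with Bowtie2 2.2.5, aligned with STAR 2.7.8a and counted RefSeq transcripts in Partek Flow. The submitters' processing notes list hg38 and mm10, and which served HepG2 is not stated. Whether counting used strand is not given in the sources used here. The authors deposited estimated counts per gene, unscaled, of which 20.3% are not whole (tolerance 0.001). No count was listed for 7034 of 28278 genes.

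Rounded counts were tested with edgeR 4.0.16 in R 4.3.3 (TMM, quasi-likelihood test, a count above 5 in at least 1 library, Benjamini-Hochberg over all genes tested). DESeq2, the authors' test, was an alternative (version 1.42.0). Comparisons of 2 groups used those 6 libraries, unpaired, and the interaction used all 12. CPM of single libraries were TMM-scaled over the 12, and correlations used a prior count of 2. Beyond the 9 genes, each list's called genes of smallest adjusted p and a mean of 1 CPM or more were named. The other alternatives were scaling by median ratio or upper quartile, omitting the low-count filter or using filterByExpr, 1 fit over the 12 libraries, blocking on the replicate letter, and dropping each library in turn. Scaling by library totals was added after seeing the data. Ratios and limits at 3 or fewer counts per library cover counting error only. Functions were tested on simulated data with 200 genes changed by 1 on the log2 scale. The 2-group tests recovered 88% of these. Of their calls 7.9% (CoCl2 against control) and 8.3% (estrogen against control) were false, above the threshold of 0.05. The interaction test recovered 80%, with 3.0% of calls false. Changes as wide as the 11217 genes called with estrogen were not simulated. Human gene positions, lengths and sequences and the mouse libraries were not used here.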

Additional observations from a re-analysis of the deposited data

Results flagged for a closer look

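No member showed an effect of CoCl2 that differed between cultures with and without estrogen by the interaction test. Of the 16 transcriptional regulators 5 did, beside 5.8% of all 16681 genes tested. In each of the 5, the log2 change with CoCl2 was lower in the presence of estrogen. The interaction was -0.58 on the log2 scale for FOXA2 (edgeR adjusted p = 0.000816), whose change with CoCl2 was 0.17 without and -0.41 with estrogen. For NR5A2 it was -0.87 (edgeR adjusted p = 0.00873), from CoCl2 changes of 0.35 and -0.52. NFE2L2 gave -0.39 (edgeR adjusted p = 0.0148), from -0.14 and -0.52. ESR1, at under 1 CPM in cultures without estrogen, gave -2.36 (edgeR adjusted p = 0.0149), from 1.37 and -0.98. HNF4A gave -0.41 (edgeR adjusted p = 0.0166), from 0.09 and -0.31.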

How the results depend on the processing

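Over the alternatives, 698 values of the members were recomputed: 650 kept direction and side of the threshold, 33 lost a call, 1 gained one and 14 changed sign, none of them a called value. The number of members called for CoCl2+estrogen against estrogen was 1 and became 0 with DESeq2 and 0 to 1 leaving out 1 library. It was 6 to 8 for CoCl2+estrogen against control, 5 to 7 against CoCl2 and 6 to 6 for estrogen against control with 1 library left out, and 0 throughout for CoCl2 and the interaction. Library totals turned ABCC2 with estrogen to -0.021 and the interactions of ABCB1 to 0.00053 and ABCC2 to 0.039, shifted the median of all genes with estrogen by -0.13 and moved the share of higher calls in the interaction from 36.2% to 51.6%. Leaving out 1 library, uncalled values spanned 0 for SLC22A9 (-0.0083 to 0.27) and ABCB1 (-0.048 to 0.013) with CoCl2, and for the interactions of SLC22A7 (-1.11 to 0.66), SLCO2B1 (-0.13 to 0.14) and ABCC2 (-0.061 to 0.013). Besides these ends, sign changes there were -0.18 and -0.13 for SLC22A7, -0.028, -0.038 and -0.055 for SLCO2B1 and 0.0076 for ABCC2. Genes called for CoCl2 numbered 229, 345 with DESeq2, 359 with all 12 libraries fitted together, and 136 without control replicate A, 147 without control replicate B and 140 without CoCl2 replicate C. For CoCl2+estrogen against estrogen they numbered 2706, and 1671 without estrogen replicate A. The replicate letters did not pair the libraries throughout. Of 18 same-letter pairs 5 correlated above 0.1, and 2 of 12 libraries correlated best with their own letter. For departures from the group mean, same-letter r was 0.21 (A), 0.29 (B) and -0.03 (C) between control and CoCl2. Between estrogen and CoCl2+estrogen it was -0.04 (A), 0.26 (B) and 0.11 (C). Pairs of unlike letter ranged from -0.39 to 0.35. With the letter as a block, the members called were 0, 6, 6, 7, 1 and 0 in the order CoCl2, estrogen, CoCl2+estrogen against control, against CoCl2, against estrogen, and interaction. Genes called with that block numbered 327 for CoCl2 and 3791 for CoCl2+estrogen against estrogen, both more than without it. They numbered 10620 for estrogen, 9902 for CoCl2+estrogen against control, 9367 against CoCl2 and 771 for the interaction, all fewer.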

Other observations

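Some carriers of hepatocyte bile salt handling were barely read in these HepG2 cultures. The members ABCC2 and ABCC3, by contrast, held means of 385 and 97.6 CPM in control. SLC10A1, the sodium-coupled bile salt uptake carrier NTCP, was at 0.946 ± 0.391 CPM in control and 1.72 ± 0.274 CPM in estrogen cultures (SD, n = 3), a called rise of 0.83 on the log2 scale (edgeR adjusted p = 0.0475). ABCB11, the canalicular bile salt pump, had at most 1 count in any library. The kidney carriers SLC22A6 and SLC22A8 had no count in any library, and SLC22A24 had none either. The subunits of the basolateral bile salt exporter moved in opposite directions with estrogen, SLC51B from 1.07 ± 0.513 to 6.33 ± 0.184 CPM and SLC51A from 2.06 ± 0.367 to 0.519 ± 0.301 CPM. Apart from the members, these genes were chosen after their values were seen.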
